A study of Mus musculus with 46 samples.

Results

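The step from 2 to 4 days after a single dose of carbon tetrachloride (CCl4) is described here from 10 of the 46 liver arrays of a recovery time course: the 5 arrays taken at 2 d and the 5 taken at 4 d. They were chosen by their labels alone, and no measured value entered the choice. The mice were male C57BL/6N animals from Janvier, 8 to 10 weeks old, on a standard diet, and each dosed mouse received 1.6 g/kg CCl4 in olive oil by intraperitoneal injection. The 5 control arrays came from untreated mice at time zero, so the groups at 2 d and 4 d share the agent, its dose and the oil vehicle, while the controls had neither. The labels do not say that each array is a separate animal, so the spread between arrays may be partly technical. Values are log2 expression values from Affymetrix mouse arrays, on which a difference of 1 is a 2-fold difference; each gene is read from a single probe set, and values of different genes are not compared with each other because probe sets differ in brightness.

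CCl4 is turned into a toxic radical by the cytochrome P450 enzyme Cyp2e1, which sits in the hepatocytes around the central vein, and those cells die. The surviving hepatocytes then leave quiescence, copy their DNA and divide, while macrophages clear the dead cells and stellate cells, the vitamin A-storing pericytes of the sinusoids, become contractile myofibroblasts that lay down matrix. When tissue mass is restored the cycling stops, the matrix is removed and hepatocytes resume making bile acids, plasma proteins and detoxifying enzymes.

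The 5 arrays at 2 d were not alike. Over the 13239 genes tested, arrays 1, 2 and 3 at 2 d correlated with each other at r = 0.982 to 0.991 and arrays 4 and 5 at 0.989, but the correlations across these sets were 0.969 to 0.976. With the 4 d arrays, which correlated among themselves at 0.986 to 0.993, arrays 1 to 3 gave r = 0.959 to 0.977 and arrays 4 and 5 gave 0.931 to 0.956. Results are therefore given with all arrays and, as an alternative chosen after the data were seen, with arrays 4 and 5 at 2 d left out; what sets these arrays apart was not tested, and the sources used here give no time of day and no scan date. At 6 d arrays 4 and 5 also lay apart for some genes. Thrsp read 7.94 and 8.34 on them (others 10.86 to 12.12) and Glul 11.17 and 10.65 (others 11.66 to 11.78). Mki67 did not split this way (4.94 and 4.63, others 4.71 to 4.79). The differences from 4 to 6 d given below use all arrays at 6 d, and the part of this split in them was not tested. The 3′ minus 5′ difference of the Gapdh control probe sets, a measure of RNA integrity, was 0.198 at 2 d and 0.199 at 4 d (two-sided exact permutation test, p = 0.976), and that of the actin control probe sets was 1.38 and 1.51 (p = 0.27). Over all probe sets the median value was 5.52 at 2 d and 5.56 at 4 d, and the interquartile range was 2.62 and 2.52, each with p = 0.00794, the smallest that exact permutation of 5 against 5 arrays can give (adjusted p = 0.0159 over 4 measures). The part of these shifts in the results was not tested beyond the other normalizations given. The liver of both groups showed its defining gene: Alb, albumin, read 14.82 to 14.84 at 2 d and 14.80 to 14.86 at 4 d. These are whole pieces of liver, so more RNA per cell and more cells of a type cannot be told apart.

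Between 2 d and 4 d, genes of DNA replication and cell division fell, and genes of several but not all hepatocyte functions rose. Of 13239 genes tested, 4139 (31.3%) passed at an adjusted p under 0.05, with 1772 (13.4%) higher and 2367 (17.9%) lower at 4 d. Changes of at least 2-fold were fewer, 112 genes (0.846%) higher and 223 (1.68%) lower. The arrays of the groups did not overlap for 2757 genes (20.8%): all 5 arrays at 4 d lay above all 5 at 2 d for 1026 genes (7.75%) and below them for 1731 (13.1%). Quantile normalization turned the balance of calls around, with 2231 higher and 1810 lower. Without arrays 4 and 5 at 2 d 2639 genes (19.9%) passed, with 958 higher calls (7.24%) and 1681 lower calls (12.7%), of which 61 (0.461%) and 158 (1.19%) were at least 2-fold; 823 of the higher and 1555 of the lower calls were also made with all arrays. Leaving out array 5 at 2 d alone gave 77 genes at least 2-fold higher. The background shares above are those against which the count of each gene group is read.

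Genes with clone or predicted names were left out of the rankings that follow. The 15 largest falls with no overlap between arrays ran from -2.69 to -2.09. They were Psat1, Mcm5, Chil3, Rrm2, Id1, Birc5, Smc2, S100a6, Cks1b, Ccne2, Mcm4, Ube2c, Mcm7, Tubb6 and Shcbp1. Of these, 10 belong to the fixed groups for replication, mitosis and G1 cyclins described next. Psat1, which makes serine for nucleotide and protein synthesis, read 6.89, 6.23, 7.17, 7.57 and 7.34 at 2 d and 4.66, 4.38, 3.98, 4.06 and 4.69 at 4 d. Every array at 4 d was thus below every array at 2 d, and the 4 d arrays were close to the control arrays, which read 3.60 to 4.18. Id1, an inhibitor of differentiation factors, fell by 2.48 ± 0.33 (SE). The 15 largest rises were Upp2, Hectd2os, Mup10, Mme, Cyp7a1, Cyp8b1, Serpina6, Thrsp, Cyp2c50, Cyp2e1, Hamp2, Bhmt, Sult2a8, Ces1g and Acss2, from 3.10 to 1.63. Upp2, the liver uridine phosphorylase, read 8.22, 8.54, 6.86, 6.68 and 6.86 at 2 d and 9.85, 10.44, 10.34, 11.25 and 10.78 at 4 d, against 10.61 to 11.82 in control; its probe set and those of Hamp2, Ttr, Hnf4a and Ghr can read related sequences. Serpina6, the plasma carrier of corticosteroids, rose by 2.15 ± 0.32 (adjusted p = 1.34e-06). Mme, the peptidase neprilysin, rose by 2.25 ± 0.28.

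Both directions can be seen beside the promoters of genes that moved. The 250-base windows shown come from RefSeq (mouse build GRCm38.p6), run 5′ to 3′ on the gene's strand from 220 bases before to 30 bases after the annotated start, and were picked because their genes carry the results below. In each window only the motifs named for that gene are in capitals, and matches to the other motifs stay in lower case. In the replication gene Mcm5 (chr8:75109289-75109538, plus strand) capitals mark 2 overlapping matches to the E2F letters TTTCGCGC and TTTGGCGC, the sites of the G1/S activator.
Mcm5: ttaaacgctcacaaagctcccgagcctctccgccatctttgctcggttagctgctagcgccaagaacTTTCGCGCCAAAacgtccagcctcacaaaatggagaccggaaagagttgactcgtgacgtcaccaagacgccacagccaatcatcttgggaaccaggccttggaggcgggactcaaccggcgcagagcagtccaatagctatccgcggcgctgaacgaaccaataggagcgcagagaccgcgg
In the mitotic genes Ube2c (chr2:164769709-164769958, plus strand) and Cdk1 (chr10:69352883-69353132, minus strand) capitals mark the cell cycle homology region TTTGAA and the CCAAT box, read by the DREAM, MuvB and NF-Y complexes of late cell cycle genes.
Ube2c: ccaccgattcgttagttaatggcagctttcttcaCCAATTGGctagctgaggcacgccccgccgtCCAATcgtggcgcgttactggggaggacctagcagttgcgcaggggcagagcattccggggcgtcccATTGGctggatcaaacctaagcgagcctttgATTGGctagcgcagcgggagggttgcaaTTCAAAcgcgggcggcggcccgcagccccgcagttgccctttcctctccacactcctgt
Cdk1: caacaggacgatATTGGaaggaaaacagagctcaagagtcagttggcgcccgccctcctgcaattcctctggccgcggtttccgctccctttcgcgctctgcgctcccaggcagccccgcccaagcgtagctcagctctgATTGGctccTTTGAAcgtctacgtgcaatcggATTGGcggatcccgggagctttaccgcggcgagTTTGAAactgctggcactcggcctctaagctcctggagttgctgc
In the hepatocyte genes Cyp8b1 (chr9:121916276-121916525, minus strand) and Cyp2e1 (chr7:140763599-140763848, plus strand) capitals mark the TATA box letters TATAAA, searched on the gene's strand only and added after the data were seen.
Cyp8b1: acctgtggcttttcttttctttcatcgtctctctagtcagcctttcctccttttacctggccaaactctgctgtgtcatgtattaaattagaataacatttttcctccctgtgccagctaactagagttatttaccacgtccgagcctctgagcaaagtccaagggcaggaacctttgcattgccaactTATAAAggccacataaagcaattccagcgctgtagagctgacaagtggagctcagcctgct
Cyp2e1: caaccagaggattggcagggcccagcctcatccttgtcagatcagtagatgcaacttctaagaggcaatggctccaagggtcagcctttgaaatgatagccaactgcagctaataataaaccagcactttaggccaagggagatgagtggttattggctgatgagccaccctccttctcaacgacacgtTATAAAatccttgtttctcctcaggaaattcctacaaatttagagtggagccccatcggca
Over the full windows of the table, from 250 bases before to 50 after the start, an E2F match (TTTCCCGC, TTTGGCGC or TTTCGCGC on either strand) was in 40.9% of the promoters of the replication group (18 of 44), 6.25% of those of the mitosis group, 15.2% of those of genes called lower at least 2-fold (33 of 217) and none of 115 promoters of genes called higher at least 2-fold, against 3.06% for all genes tested and 1.84% for all promoters. The genes called lower at least 2-fold include replication genes such as Mcm5, so the E2F shares of these groups are not separate results. TTTGAA on either strand was in 77.1% of mitosis promoters (37 of 48) and 11.4% of replication promoters. It was in 12.4% for genes tested and 17.9% for all promoters. CCAAT on either strand was in 75.0% and 59.1% of these groups, against 36.9% for genes tested. Both motifs were also found elsewhere: in promoters of drug metabolism genes TTTGAA was in 31.0% and CCAAT in 55.2%, and in those of genes called higher at least 2-fold in 17.4% and 46.1%. TATAAA was in 24.1% of promoters of drug metabolism genes (7 of 29) and in 4 of 21 promoters of bile acid genes, against 5.22% for genes tested and 8.32% for all promoters. It was in 4.17% of promoters of plasma protein genes, and in 11.1% and 7.83% of those of genes called lower and higher at least 2-fold. At least 2 of the motifs overlapped in 0.207% of all promoters. The windows shown also hold unmarked matches: CCAAT in Mcm5, the E2F letters TTTCGCGC in Cdk1, and both TTTGAA and CCAAT in Cyp2e1. The capitals thus do not divide these genes by motif. These are matches of letters and not evidence of binding.

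Most genes of the DNA replication machinery fell, and few were still above control at 4 d. Of 43 replication and nucleotide supply genes tested, 35 fell, 2 rose and 6 did not pass, with a median of -1.14, against 0.01 over all genes tested, and without arrays 4 and 5 at 2 d the counts were 32 and 2, with a median of -0.77. Against control, 35 of the 43 were higher at 2 d and 4 at 4 d, where 21.1% and 4.74% of all genes tested were higher; these comparisons share the 2 d or 4 d arrays with the step itself. Mcm5, a subunit of the MCM helicase that opens DNA at origins, read 8.84, 8.84, 8.55, 9.25 and 9.80 at 2 d and 7.02, 5.95, 6.10, 6.03 and 6.80 at 4 d. The groups did not overlap, and of the 4 d arrays only array 2 lay within the control range of 4.76 to 5.98. The difference was -2.68 ± 0.26 (6.39-fold lower, adjusted p = 1.05e-10), and 1.20 ± 0.26 above control remained at 4 d (adjusted p = 0.00154). The other helicase subunits Mcm4 and Mcm7 fell by 2.15 and 2.11 and were 0.36 and 0.31 above control at 4 d, which did not pass (adjusted p = 0.299 and 0.326). Mcm5, Mcm7 and Rrm2 are read by probe sets that can also read near-identical sequences.

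Rrm2, the ribonucleotide reductase subunit that limits the supply of deoxynucleotides, read 9.97, 9.43, 9.84, 9.89 and 10.40 at 2 d and 7.98, 7.04, 7.40, 6.83 and 7.85 at 4 d. It fell by 2.49 ± 0.22 and stayed 1.46 ± 0.22 above control (adjusted p = 6.96e-06). Pcna, the sliding clamp of the DNA polymerases, read 10.53, 10.61, 10.41, 11.21 and 11.63 at 2 d and 9.29, 9.25, 9.09, 9.28 and 9.49 at 4 d; arrays 4 and 5 were the highest at 2 d, and without them the difference was -1.24 ± 0.14 in place of -1.60 ± 0.16. Prim1, a primase subunit, fell by 2.02 ± 0.15. The members that rose were Mcm10, from 8.54 ± 0.28 (SD, n = 5) to 9.47 ± 0.21, and Orc1, from 7.46 ± 0.08 to 7.73 ± 0.12, both initiation factors, with control at 10.01 ± 0.25 and 7.70 ± 0.11. With the mean of all probe sets Orc1 differed by 0.01 and did not pass (adjusted p = 0.943), and Mcm10 rose by 0.35 in place of 0.93. Of the 6 members that did not pass, 3 had another probe set on the array that was called lower.

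**Figure D1:**
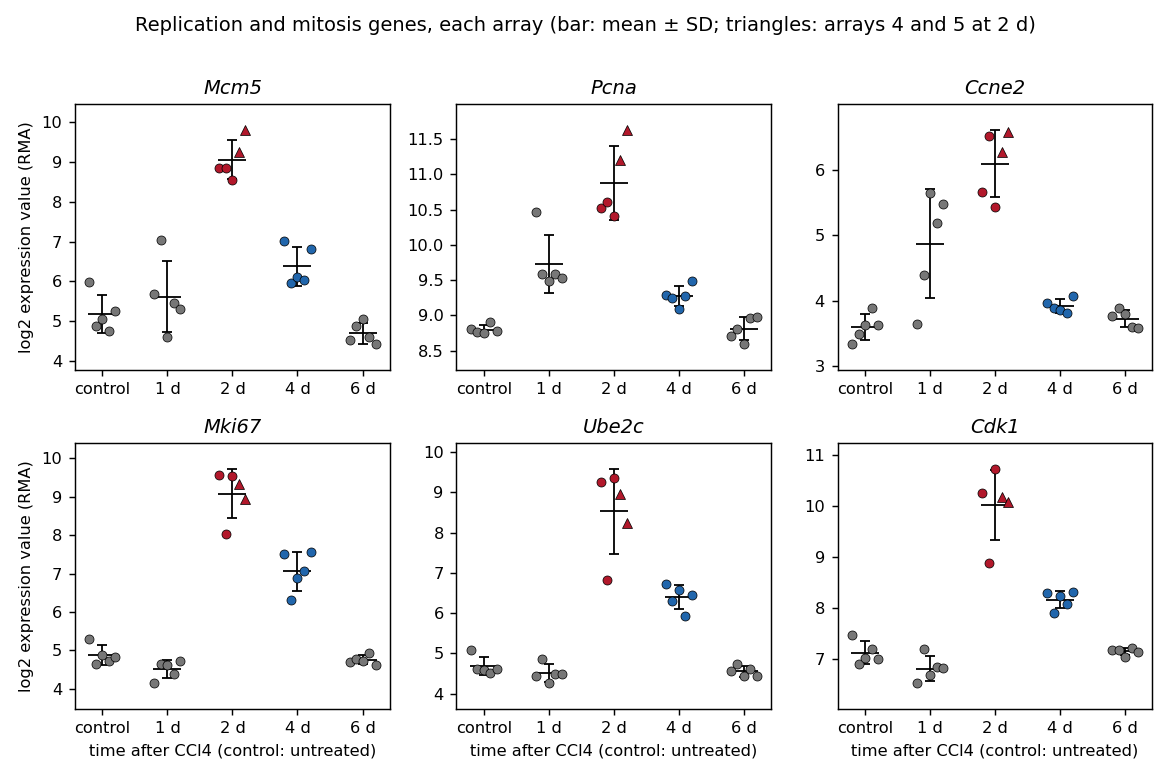
Each point is 1 array (log2 expression value) for 3 S phase genes (Mcm5, Pcna, Ccne2) and 3 mitosis genes (Mki67, Ube2c, Cdk1) in untreated controls and at 1, 2, 4 and 6 d; bars are mean ± SD of 5 arrays and triangles are arrays 4 and 5 at 2 d. Ccne2 falls from 5.44 to 6.57 at 2 d to 3.82 to 4.08 at 4 d, while Mki67 at 4 d (6.32 to 7.57) still lies above every control array (4.65 to 5.31).

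Genes of mitosis fell too, and 26 of them were still above control at 4 d. Of 42 tested, 35 fell, 1 rose and 6 did not pass, with a median of -1.32, and the same 35 fell without arrays 4 and 5 at 2 d; a stricter filter on low values left 22 to fall. Against control 35 were higher at 2 d (median 2.32) and 26 at 4 d (median 0.62). Mki67, the proliferation antigen Ki-67 that coats mitotic chromosomes, read 9.57, 8.02, 9.53, 9.34 and 8.94 at 2 d and 7.50, 6.32, 6.88, 7.07 and 7.57 at 4 d. The groups did not overlap, and array 2 was the lowest in each, although the numbers were not taken to pair the arrays. The difference was -2.01 ± 0.19 (adjusted p = 9.72e-11), with 2.19 ± 0.19 above control left at 4 d (adjusted p = 6.01e-11). Between 4 d and 6 d Mki67 fell by a further 2.31 (adjusted p = 1.42e-11).

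Ube2c, the ubiquitin-conjugating enzyme of the anaphase-promoting complex, read 9.26, 6.82, 9.36, 8.95 and 8.24 at 2 d and 6.71, 6.31, 6.58, 5.93 and 6.44 at 4 d. Array 2 at 2 d, 6.82, was only just above the highest array at 4 d. Cdk1, the kinase that drives entry into mitosis, read 10.27, 8.89, 10.73, 10.19 and 10.08 at 2 d and 8.29, 7.90, 8.24, 8.09 and 8.31 at 4 d, again with array 2 lowest at 2 d; it fell by 1.87 ± 0.17 and was 1.04 ± 0.17 above control at 4 d. Mean values over the 54 mitosis genes on the array ranged from 6.63 to 7.97 over the arrays at 2 d, and over the 47 replication genes on the array from 7.27 to 7.91. Birc5 (survivin), Smc2 (a condensin subunit), Top2a (the topoisomerase that separates sister DNA) and Shcbp1 fell by 2.48, 2.44, 1.88 and 2.09. With the mean of all probe sets Smc2 and Top2a fell by 1.57 and 0.71. Cks1b, a Cdk subunit, fell by 2.42 ± 0.24 and was -0.11 ± 0.24 from control at 4 d, which did not pass (adjusted p = 0.868). Ccnb2, cyclin B2, chosen after its values were seen, overlapped between groups (6.85 to 9.87 at 2 d, 7.04 to 7.90 at 4 d) and was 2.15 ± 0.28 above control at 4 d. Nek2, a centrosome kinase, rose by 0.61 ± 0.12 with the probe set used, but by 0.32 ± 0.11 without arrays 4 and 5 at 2 d, and another probe set of the gene fell by 1.54.

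Part of the G1 regulators fell. Of 22 cyclin, Cdk inhibitor and E2F genes, 15 fell and none rose, with a median of -0.46; 9 fell without arrays 4 and 5 at 2 d, and 9 with the mean of all probe sets of a gene. Ccne2, the cyclin E of S phase entry, read 5.66, 6.52, 5.44, 6.27 and 6.57 at 2 d and 3.97, 3.89, 3.86, 3.82 and 4.08 at 4 d, close to the control arrays (3.34 to 3.89). Rbl1 (p107) and E2f8, both repressors of E2F targets that are E2F targets themselves, fell by 1.86 ± 0.22 and 1.19 ± 0.20. The low E2f8 values of 4 d (5.73 to 6.16, control 5.28 to 6.07) were not kept. At 6 d its arrays read 6.51, 5.53, 7.11, 6.76 and 6.92, against 6.66 to 7.55 at 2 d. Ccnd1, cyclin D1, which links growth factor signals to the cell cycle, read 8.60, 8.77, 8.79, 10.11 and 10.23 at 2 d and 9.01, 7.88, 7.98, 8.50 and 8.91 at 4 d. Arrays 4 and 5 were the highest at 2 d, and arrays 1 to 3 overlapped the 4 d arrays. The difference was -0.84 ± 0.24 (adjusted p = 0.00688) with all arrays, -0.61 (adjusted p = 0.0516) without array 5 and -0.26 ± 0.22 (adjusted p = 0.427) without both. Cdkn1a, the Cdk inhibitor p21, read 7.76 to 8.48 at 2 d, 6.92 to 7.37 at 4 d and 6.34 to 6.47 in control; its difference of -0.95 ± 0.30 did not pass without arrays 4 and 5 (-0.84 ± 0.35, adjusted p = 0.0809).

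Many genes of ribosome and protein turnover and of stress responses fell. Of 24 ribosome biogenesis factors 18 fell, 12 of them without arrays 4 and 5 at 2 d; Nop58 and Nolc1, which build small nucleolar ribonucleoproteins, fell by 1.61 ± 0.25 and 1.17 ± 0.18. Of 31 proteasome subunits 19 fell, with a median of -0.25 (12 with cyclic loess, 14 without arrays 4 and 5), and Psmd8 fell by 0.65 ± 0.08. Of 26 genes of the integrated stress and unfolded protein responses 15 fell, 13 of them also without arrays 4 and 5; the secreted chaperone-like Creld2 and Manf fell by 1.48 ± 0.33 and 1.23 ± 0.23. Of 13 heat shock chaperone genes 3 fell, near the background share, with 2 without arrays 4 and 5, 5 with the mean of all probe sets and 9 in a fit of the 10 arrays alone. Of 20 structural genes 17 fell (15 without arrays 4 and 5), with 11 still above control at 4 d. Tubb6, a beta tubulin, read 10.01, 8.62, 10.03, 9.64 and 9.72 at 2 d and 8.27, 7.20, 7.14, 7.20 and 7.66 at 4 d, above the control arrays (5.91 to 6.63). S100a6, a calcium-binding protein of proliferating and stromal cells, read 8.33, 7.67, 7.36, 9.01 and 9.24 at 2 d and 5.74, 5.70, 4.99, 5.78 and 7.23 at 4 d.

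**Figure D2:**
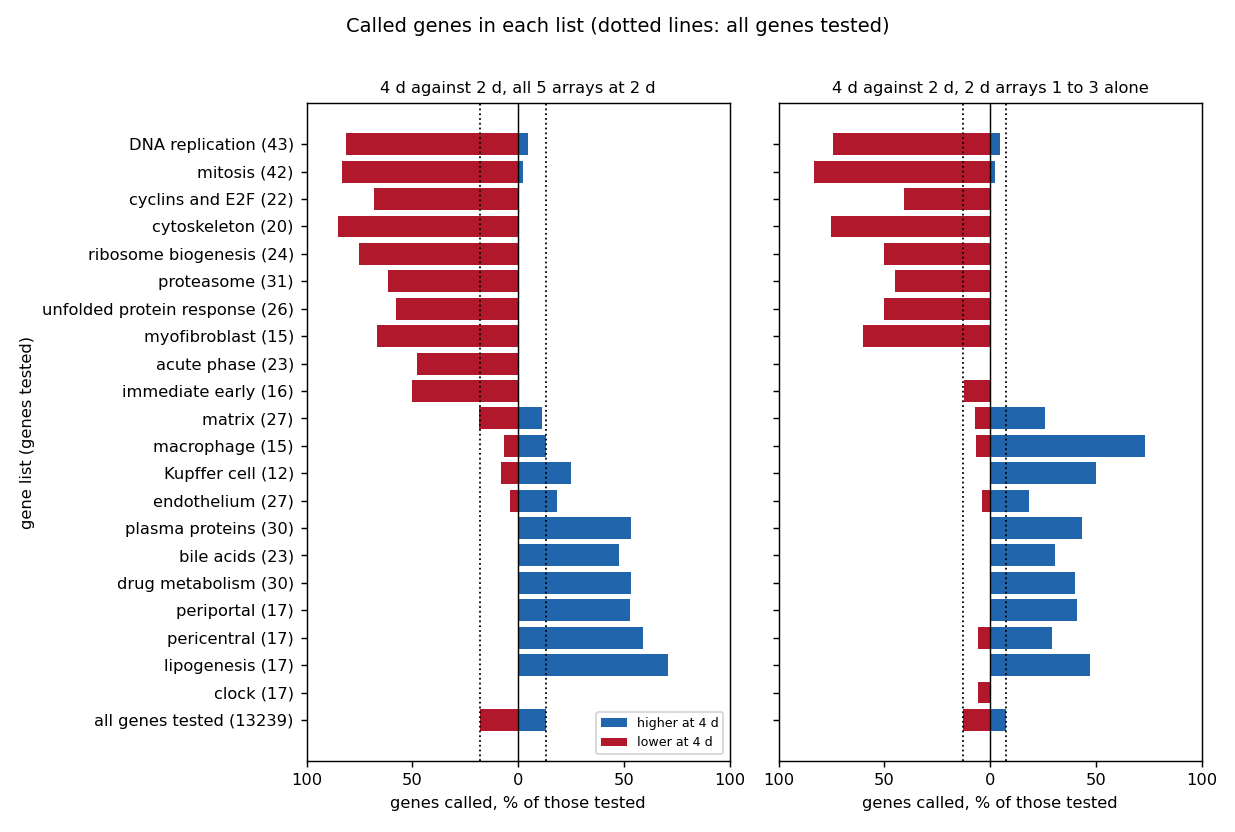
Bars give the share of tested genes in each list called higher (blue) or lower (red) at 4 d against 2 d, with all arrays on the left and without arrays 4 and 5 at 2 d on the right; dotted lines give the share over all genes tested, 13.4% higher and 17.9% lower on the left. The mitosis list keeps its 83.3% called lower, replication goes from 81.4% to 74.4% and the G1 list from 68.2% to 40.9%. The acute phase list loses all its calls, and the macrophage list goes from 2 to 11 genes called higher, of 15. Genes high at 2 d alone could enter the tested set, which favours falls, as in the mitosis list.

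Many marker genes of hepatocytes around the central vein, the zone that CCl4 kills, rose in whole-liver RNA between 2 and 4 d, but in different ways. Of 17 pericentral genes tested 10 rose and none fell (median 0.48); without arrays 4 and 5 at 2 d 5 rose and 1 fell. Cyp2e1 read 12.80, 12.11, 12.96, 10.54 and 10.51 at 2 d and 13.46, 13.80, 13.78, 13.67 and 13.63 at 4 d. All 4 d arrays were above all 2 d arrays, and arrays 4 and 5 at 2 d were the lowest of that day. The rise was 1.88 ± 0.27 (adjusted p = 5.46e-07), or 1.04 ± 0.17 (adjusted p = 1.23e-05) without them, and at 4 d Cyp2e1 was -0.37 from control, which did not pass (adjusted p = 0.487). Gulo, the enzyme of vitamin C synthesis, rose by 1.30 ± 0.23. Cyp1a2, another pericentral P450, differed by 0.79 ± 0.27 with all arrays (adjusted p = 0.0207), by 0.69 and 0.66 without array 4 or array 5 alone (adjusted p = 0.065 and 0.0776), and by 0.48 ± 0.30 (adjusted p = 0.272) without arrays 4 and 5.

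Of the 17 pericentral genes 3 were below control at 4 d and none above, with a median of -0.02. Those 3, Glul, Oat and Slc1a2, handle glutamine and glutamate in the innermost cell layer. Glul, glutamine synthetase, read 9.45, 9.44, 8.96, 8.80 and 9.01 at 2 d and 9.87, 10.54, 10.48, 10.20 and 10.15 at 4 d, between the 2 d arrays and the control arrays (10.83 to 11.86) in every case. It rose by 1.12 ± 0.18 (adjusted p = 6.97e-06) and was still -1.16 ± 0.18 from control (adjusted p = 1.53e-05); by 6 d it had risen by another 1.14 (adjusted p = 1.77e-05). Oat, ornithine aminotransferase, read 8.75, 8.67, 8.90, 9.52 and 9.24 at 2 d and 9.53, 9.96, 10.50, 9.99 and 9.48 at 4 d, with 1 overlap between the groups. It rose by 0.87 ± 0.25 (adjusted p = 0.00711) and was -1.91 ± 0.25 from control. Slc1a2, the glutamate transporter of the same cells, chosen after its values were seen, read 4.88, 5.72, 4.63, 5.01 and 5.09 at 2 d and 5.15, 4.88, 5.45, 5.38 and 4.70 at 4 d against 7.92 to 9.19 in control. Its groups overlapped and its difference of 0.04 ± 0.29 did not pass (adjusted p = 0.922). At 4 d it was -3.43 ± 0.29 from control, and it rose by 2.82 between 4 and 6 d (adjusted p = 5.21e-09). Arrays 4 and 5 at 6 d were the lowest of that day for Slc1a2 (7.31 and 7.14, others 8.3 to 8.44). Other genes of the list under Wnt control, also named after their values were seen, were not called against control at 4 d. The ammonium channel gene Rhbg, the Wnt feedback gene Axin2, the R-spondin receptor gene Lgr5 and the transcription factor gene Tbx3 rose from 2 to 4 d, by 0.68, 0.42, 0.48 and 0.70, and Rnf43, an inhibitor of Wnt receptors, differed by 0.15 and did not pass. Without arrays 4 and 5 Rhbg kept its call, while Axin2, Lgr5 and Tbx3 did not pass (adjusted p = 0.0696, 0.131 and 0.0694). Lgr5 also did not pass with array weights or with the mean of all probe sets (adjusted p = 0.0758 and 0.0911).

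**Figure D3:**
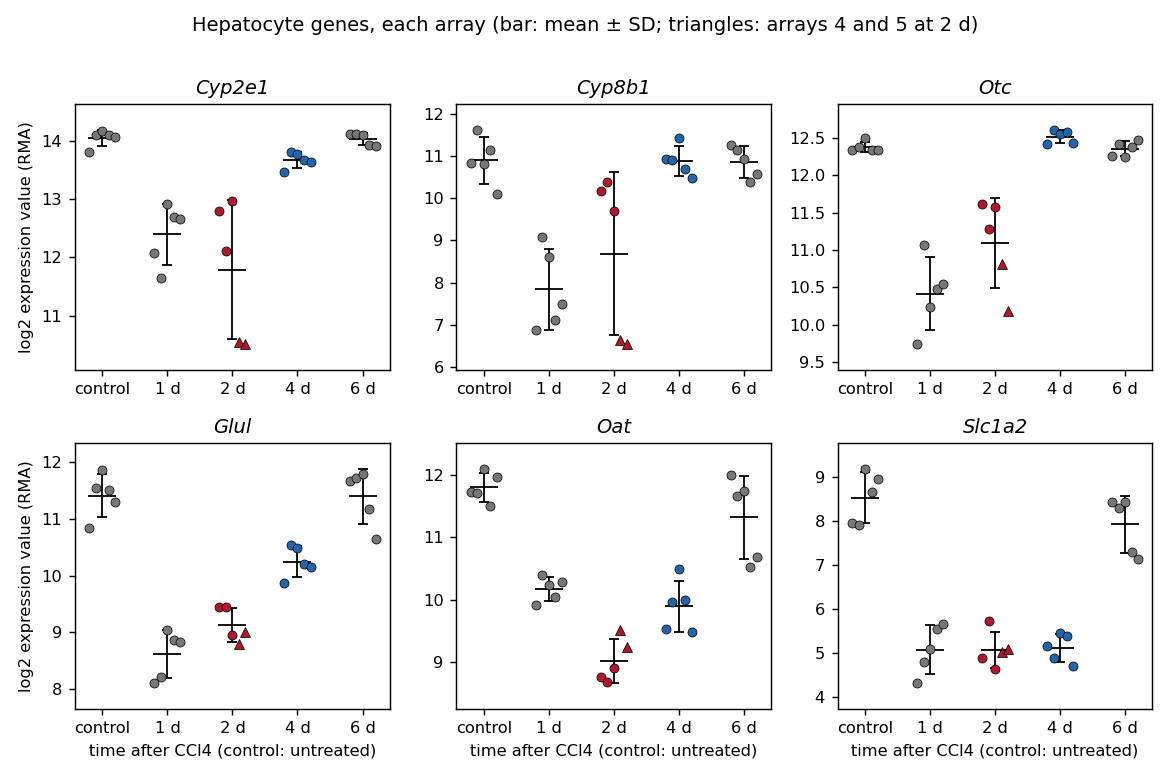
Each point is 1 array (log2 expression value) for 6 hepatocyte genes in controls and at 1, 2, 4 and 6 d; bars are mean ± SD of 5 arrays and triangles are arrays 4 and 5 at 2 d. At 2 d Cyp8b1 is lowest on arrays 4 and 5 (6.54 and 6.65), Otc is at the control level by 4 d, and Glul, Oat and Slc1a2 at 4 d lie below every control array.

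Genes of bile acid handling and drug metabolism rose. Of 23 bile acid genes 11 rose and none fell, and 7 of them rose without arrays 4 and 5 at 2 d. Cyp7a1, which catalyses the first and limiting step from cholesterol to bile acids, read 9.18, 8.74, 8.95, 6.18 and 8.11 at 2 d and 10.78, 10.25, 10.99, 10.59 and 9.76 at 4 d, with array 4 the lowest at 2 d. It rose by 2.24 ± 0.51 (adjusted p = 0.000697), and passed without arrays 4 and 5 (adjusted p = 0.037), to the control range (9.21 to 10.77) or just above it. Cyp8b1, the sterol 12-alpha-hydroxylase that sets the cholic acid share, read 10.16, 10.38, 9.69, 6.65 and 6.54 at 2 d and 10.93, 10.91, 11.43, 10.68 and 10.48 at 4 d. Its difference was 2.20 ± 0.47 with all arrays; without arrays 4 and 5, the lowest, it was 0.81 ± 0.33 and did not pass (adjusted p = 0.0805). Abcb11, the bile salt export pump, and Slc27a5, the bile acid-CoA ligase, rose by 1.25 ± 0.14 and 1.30 ± 0.12 with all arrays and by 1.04 ± 0.16 and 1.04 ± 0.10 without arrays 4 and 5. Slc10a1, the bile acid uptake transporter, rose by 1.02 ± 0.17, or 0.59 ± 0.15 without them.

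Of 30 genes of drug metabolism 16 rose and none fell (median 0.48); without arrays 4 and 5 12 of these rose. Against control 20 were lower at 2 d and 8 at 4 d, where 18.9% and 2.21% of all genes tested were lower. Cyp2c50 read 11.79, 11.02, 11.70, 8.64 and 8.81 at 2 d and 12.16, 12.74, 12.52, 12.05 and 12.01 at 4 d, so that its rise of 1.91 ± 0.36 was 0.79 ± 0.24 (adjusted p = 0.0164) without arrays 4 and 5. Bhmt, which remethylates homocysteine, was also lowest on arrays 4 and 5, reading 13.88, 13.78, 13.65, 10.20 and 10.60 at 2 d and 14.08 to 14.26 at 4 d. The difference for Bhmt of 1.74 ± 0.43 became 0.39 ± 0.28 (adjusted p = 0.336), and that of Car3, a carbonic anhydrase abundant in hepatocytes, went from 1.41 ± 0.39 to 0.31 ± 0.29 (adjusted p = 0.484). Without array 5 alone Car3 rose by 0.94. Of the 15 largest rises, Cyp8b1, Bhmt and Thrsp did not pass without arrays 4 and 5, and Mup10, Sult2a8 and Ces1g rose by 1.49, 0.85 and 1.06 in place of 2.38, 1.73 and 1.66.

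Periportal genes, expressed where blood enters the lobule, rose as well. Of 17 tested 9 rose and none fell (median 0.63), with 7 higher without arrays 4 and 5 at 2 d. Otc, the ornithine transcarbamylase of the urea cycle, read 11.62, 11.28, 11.57, 10.81 and 10.19 at 2 d and 12.41, 12.60, 12.55, 12.58 and 12.43 at 4 d, where it reached the control arrays (12.33 to 12.50). It rose by 1.42 ± 0.17 (adjusted p = 1.19e-08), or 1.03 ± 0.15 without arrays 4 and 5. Cyp2f2, a P450 of periportal cells, rose by 1.59 ± 0.16, Hal, histidine ammonia-lyase, by 1.19 ± 0.29 and Pigr, the receptor that carries immunoglobulin A into bile, by 1.01 ± 0.14.

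Fatty acid synthesis was the hepatocyte group with the largest share of rises, 12 of 17 tested with none lower (median 0.96), and 8 without arrays 4 and 5 at 2 d. Scd1, the desaturase that makes oleate, read 12.59, 12.84, 12.46, 13.36 and 12.71 at 2 d and 14.34, 14.22, 14.23, 14.32 and 14.16 at 4 d. It rose by 1.46 ± 0.13 (adjusted p = 1.32e-11) and was 0.26 ± 0.13 above control at 4 d, which did not pass. Acss2, which makes cytosolic acetyl-CoA, rose by 1.63 ± 0.33. Fasn, fatty acid synthase, and Acly, ATP citrate lyase, were chosen after their values were seen because they passed above control at 4 d. Fasn read 10.23, 10.15, 8.72, 9.56 and 9.59 at 2 d and 11.50, 10.40, 10.38, 10.40 and 10.38 at 4 d, 0.89 ± 0.26 above control at 4 d (adjusted p = 0.0243). Acly was 0.83 ± 0.25 above control (adjusted p = 0.0276), and Fasn and Acly fell again between 4 and 6 d, by 1.70 and 1.71. The lists of cholesterol synthesis, fatty acid oxidation and hepatocyte transcription factors had few or mixed calls. Of 20 cholesterol synthesis genes 3 rose and 1 fell (median 0.02; 2 fell without array 1 at 2 d and 3 without array 3). Of 20 genes of fatty acid oxidation 4 rose and 1 fell (median 0.06), turning to 1 and 4 without arrays 4 and 5. Of 18 hepatocyte transcription factors 3 rose and 3 fell, with 1 in each direction without arrays 4 and 5, 1 lower without array 5 alone and 6 higher with quantile normalization. Most genes of glucose output and storage rose: of 11 tested 6 rose and 1 fell (median 0.79). Without arrays 4 and 5 at 2 d 4 rose and 1 fell (median 0.43). The member that fell was Igfbp1, an insulin-repressed binding protein of insulin-like growth factors. It read 10.93 to 11.81 at 2 d and 9.15 to 9.94 at 4 d, while the controls spread from 7.24 to 11.54.

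Many genes of secreted plasma proteins rose and 11 acute phase genes fell, the latter depending on single arrays. Of 30 coagulation and complement genes 16 rose and none fell (median 0.29; 13 rose without arrays 4 and 5 at 2 d). C8g, a complement subunit, read 11.07, 10.87, 11.09, 10.94 and 10.68 at 2 d and 11.58, 11.81, 11.89, 11.85 and 11.67 at 4 d, a rise of 0.83 ± 0.07 (adjusted p = 1.39e-11). Serpinc1, antithrombin, rose by 0.49 ± 0.06. Some hallmark hepatocyte genes did not pass. Alb differed by 0.00 ± 0.04, Ttr, transthyretin, by 0.08 ± 0.04 (adjusted p = 0.165) and Hnf4a, a master regulator of hepatocyte identity, by 0.01 ± 0.12. Ttr passed with cyclic loess (0.18, adjusted p = 0.00576) and with the mean of all probe sets (0.11, adjusted p = 0.0462). Alb and Ttr read at the top of the range of values in every group, so a small difference there does not show that their RNA was steady; saturation was not tested. Of 23 acute phase genes 11 fell and none rose (median -0.52), but the count was 4 without array 4 at 2 d, 6 without array 5, 5 without array 3 at 4 d and 0 without arrays 4 and 5 at 2 d, where the median was -0.38. Saa1, serum amyloid A, read 11.90, 13.06, 12.74, 13.47 and 13.60 at 2 d and 9.07, 10.57, 9.54, 12.23 and 10.68 at 4 d; the difference of -2.54 ± 0.70 (adjusted p = 0.00485) had an adjusted p of 0.0576 without arrays 4 and 5. Lcn2, lipocalin 2, read 10.11 to 10.93 at 2 d, 7.72 to 9.18 at 4 d and 4.51 to 6.68 in control. Its groups did not overlap, yet its difference of -2.07 ± 0.80 (adjusted p = 0.0449) did not pass when any 1 array was left out of arrays 2 to 5 at 2 d and arrays 1 to 4 at 4 d (adjusted p 0.053 to 0.0961), nor with quantile normalization, cyclic loess, no filter or the robust fit (adjusted p 0.0515 to 0.0565).

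Male-biased liver genes were mostly still below control at 4 d. Of 10 male-biased genes 5 rose (3 without array 5 at 2 d or array 2 at 4 d, and 2 without arrays 4 and 5 at 2 d), and 6 were still below control at 4 d. Cyp4a12a, a male-specific P450 under growth hormone pulses, read 7.67, 7.96, 8.42, 7.78 and 7.16 at 2 d, 7.88, 9.39, 9.21, 8.92 and 8.66 at 4 d and 10.26 to 11.10 in control. Its rise of 1.02 ± 0.28 did not pass without arrays 4 and 5 at 2 d (0.80 ± 0.32, adjusted p = 0.0705), and it was -1.71 ± 0.28 from control at 4 d. Cyp2d9 rose by 1.06 ± 0.17 to the control range, and Ghr, the growth hormone receptor, by 0.77 ± 0.18, while Igf1, its target, differed by 0.08 ± 0.09 and did not pass.

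A set of mu class glutathione S-transferases, enzymes that conjugate electrophiles, rose above control. Gstm3 read 10.85, 9.73, 10.60, 10.86 and 11.05 at 2 d and 12.51, 11.90, 11.92, 12.69 and 12.14 at 4 d, against 9.42 to 10.51 in control. It rose by 1.61 ± 0.26 (adjusted p = 5.53e-06), was 2.31 ± 0.26 above control at 4 d and fell by 2.84 between 4 and 6 d. Gstm2 and Gstm1 rose by 1.20 ± 0.17 and 0.85 ± 0.16 to 1.18 and 1.04 above control. These genes are close relatives, and the probe sets of Gstm1 and Gstm3 can read more than 1 of them. Of the 26 Nrf2 target and glutathione genes 6 rose and 5 fell (3 without array 3 at 2 d, and 2 without arrays 4 and 5). The list median was -0.05. Of all genes tested 13.4% rose and 17.9% fell, so the falls were near the background share. Txnrd1, thioredoxin reductase 1, was a member that fell, by 0.65.

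Among genes of the stroma, most contractile genes fell, while the matrix genes were mixed. Of 15 myofibroblast contractile genes tested 10 fell and none rose (median -0.67), and 9 of these fell without arrays 4 and 5 at 2 d; 4 were above control at 4 d. Acta2, smooth muscle actin, the usual marker of activated stellate cells, read 7.85, 9.11, 7.82, 9.26 and 9.55 at 2 d and 6.94, 6.47, 6.62, 6.90 and 6.94 at 4 d. The 4 d arrays were close to the control arrays (6.50 to 6.81). It fell by 1.95 ± 0.19 (adjusted p = 1.34e-10), or 1.49 ± 0.17 without arrays 4 and 5, with a probe set that can read other actins. Tagln, Myl9 and Tpm4, all of the contractile apparatus, fell by 1.62 ± 0.15, 1.09 ± 0.15 and 1.10 ± 0.15. Ccn2, a matricellular target of TGF-beta and YAP, read 6.47, 6.37, 6.79, 7.39 and 7.31 at 2 d and 5.13, 5.01, 4.97, 5.65 and 5.55 at 4 d, and fell by 1.60 ± 0.25.

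Of 27 matrix genes tested 3 rose, 5 fell and 19 did not pass, near the background shares, while 14 were above control at 4 d and none below. Without arrays 4 and 5 at 2 d 7 rose and 2 fell, and without array 5 at 4 d 1 rose. Col3a1, a fibrillar collagen, read 8.96, 9.56, 9.15, 10.18 and 10.61 at 2 d and 9.93, 10.28, 10.39, 10.04 and 10.62 at 4 d. The groups overlapped through arrays 4 and 5 at 2 d: the difference was 0.56 ± 0.30 (adjusted p = 0.155) with all arrays and 1.03 ± 0.32 (adjusted p = 0.0199) without them, and it passed with array weights (0.79, adjusted p = 0.0302). At 4 d it was 2.80 ± 0.30 above control (adjusted p = 1.24e-08), and it fell by 2.46 by 6 d. Col4a1, a basement membrane collagen, fell by 0.90 ± 0.18 (0.59 ± 0.18 without arrays 4 and 5). Col1a1 differed by -0.50 ± 0.12 with all arrays and by -0.18 ± 0.09 (adjusted p = 0.162) without them. Timp1, the inhibitor of matrix proteases, read 6.32, 6.35, 6.19, 7.71 and 7.26 at 2 d and 6.03, 6.20, 5.80, 6.04 and 6.82 at 4 d, and its call (-0.59 ± 0.18, adjusted p = 0.0122) was lost without array 4 or 5 at 2 d or array 3 at 4 d, and without arrays 4 and 5 together (-0.11 ± 0.15, adjusted p = 0.652). Of 13 quiescent stellate cell genes tested 3 rose, 1 fell and 9 did not pass, with a median of 0.13. Over all genes tested 13.4% rose and 17.9% fell. The counts of 3 and 1 were the same without arrays 4 and 5. Colec10, a collectin and 1 of those that rose, did so by 0.77 ± 0.12, or 0.84 ± 0.15 without arrays 4 and 5.

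**Figure D4:**
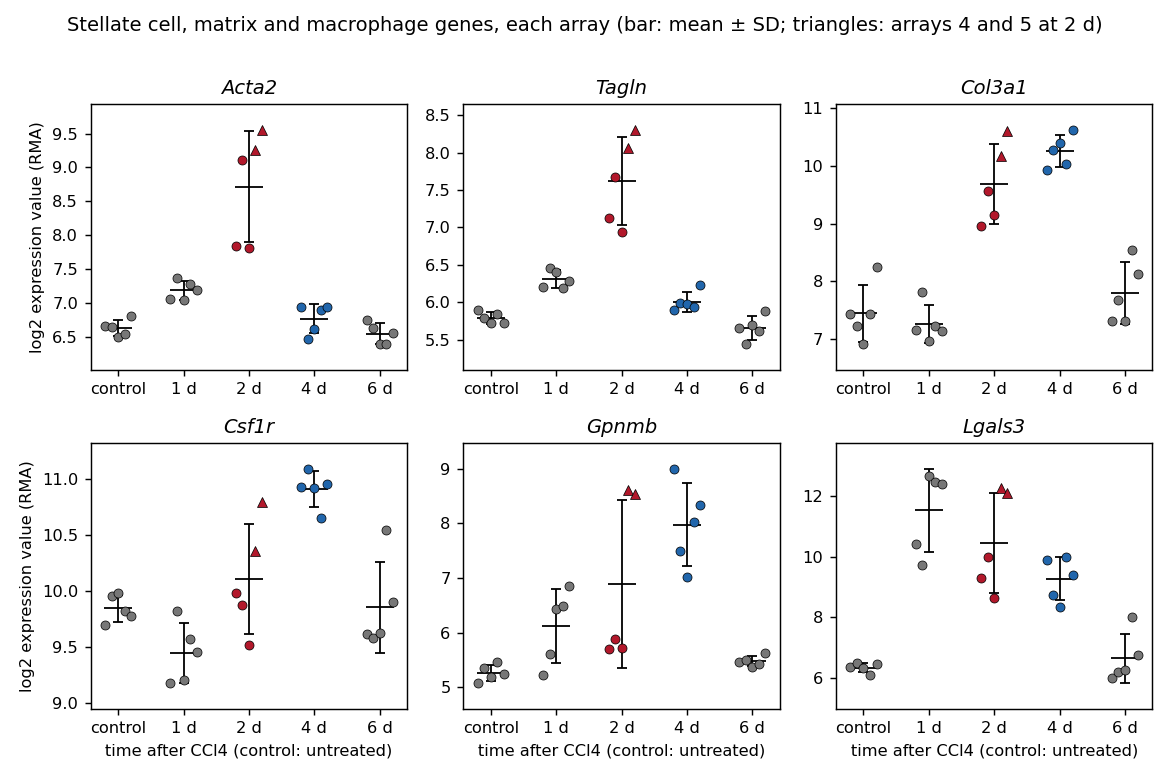
Each point is 1 array (log2 expression value) for 2 myofibroblast genes (Acta2, Tagln), a collagen (Col3a1) and 3 macrophage genes (Csf1r, Gpnmb, Lgals3) in controls and at 1, 2, 4 and 6 d; bars are mean ± SD of 5 arrays and triangles are arrays 4 and 5 at 2 d. At 2 d Gpnmb is at 5.70 to 5.89 on arrays 1 to 3 and at 8.61 and 8.54 on arrays 4 and 5, while at 4 d all arrays lie between 7.01 and 8.99.

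Macrophage genes stayed above control at 4 d, and their change over the step depended on arrays 4 and 5 at 2 d. Of 15 general macrophage genes tested 2 rose and 1 fell with all arrays; 7 rose without array 4 at 2 d, 6 without array 5 and 11 without both. Their mean over the 15 genes ran from 8.21 to 9.46 over the arrays at 2 d, from 8.94 to 9.11 at 4 d and from 7.79 to 7.91 in control, and 13 were above control at 4 d. Csf1r, the receptor for the macrophage growth factor CSF1, read 9.98, 9.88, 9.52, 10.36 and 10.80 at 2 d and 10.93, 11.09, 10.92, 10.65 and 10.96 at 4 d, a rise of 0.80 ± 0.18 (1.11 ± 0.18 without arrays 4 and 5) to 1.06 above control. Adgre1 (F4/80) rose by 0.59 ± 0.14. Cd68, a lysosomal protein of phagocytes, moved the other way: it read 7.90, 8.14, 7.82, 8.94 and 9.04 at 2 d and 7.51, 7.43, 7.12, 7.69 and 7.27 at 4 d, a difference of -0.96 ± 0.18 (-0.55 ± 0.17 without arrays 4 and 5), and at 4 d it was 1.66 ± 0.18 above control.

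Among the 12 resident Kupffer cell markers 3 rose (Clec4f, Fcna and Folr2) and 1 fell, with 7 higher without array 5 at 2 d, 6 without arrays 4 and 5, and 7 to 8 with quantile normalization, cyclic loess or array weights. Clec4f, a lectin that in mice marks resident Kupffer cells, read 8.59, 8.40, 8.52, 8.41 and 9.16 at 2 d and 9.54, 9.48, 9.57, 9.18 and 9.32 at 4 d, a rise of 0.80 ± 0.14 (adjusted p = 3.68e-05) to 0.64 above control. Cd5l, a secreted Kupffer cell protein, differed by 0.48 ± 0.20 with all arrays (adjusted p = 0.0638) and 0.85 ± 0.21 (adjusted p = 0.0029) without arrays 4 and 5, and it passed without either alone (adjusted p = 0.0319 and 0.0172) and with quantile normalization, cyclic loess or array weights (adjusted p 0.00744 to 0.0469). Marco, a scavenger receptor, read 8.12, 8.70, 7.64, 9.89 and 10.11 at 2 d and 7.0, 7.29, 7.22, 7.73 and 7.15 at 4 d; its difference of -1.61 ± 0.39 did not pass without arrays 4 and 5 (-0.88 ± 0.40, adjusted p = 0.117).

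Markers of infiltrating and lipid-laden macrophages split. Of 16 tested 1 rose and 3 fell; 3 rose and 1 fell without either array 4 or array 5 at 2 d, and 4 rose and 1 fell without both. Chil3, a chitinase-like protein of recruited monocytes, read 7.55, 6.59, 6.19, 8.60 and 8.48 at 2 d and 5.10, 4.59, 4.53, 5.15 and 5.08 at 4 d, a difference of -2.59 ± 0.32 (-1.88 ± 0.30 without arrays 4 and 5). Gpnmb, a glycoprotein of lipid-loaded macrophages, read 5.70, 5.89, 5.73, 8.61 and 8.54 at 2 d and 8.99, 7.50, 7.01, 8.03 and 8.34 at 4 d. The rise was 1.08 ± 0.37 (adjusted p = 0.0218) with all arrays and 2.20 ± 0.25 (adjusted p = 1.6e-08) without arrays 4 and 5; it lost its call, at an adjusted p of up to 0.104, without any 1 of arrays 1, 2 and 3 at 2 d and arrays 1 and 5 at 4 d. Lgals3, galectin 3, read 9.29, 9.98, 8.62, 12.27 and 12.10 at 2 d and 9.88, 8.74, 8.34, 10.00 and 9.40 at 4 d, a difference of -1.18 ± 0.49 (adjusted p = 0.0624) that was -0.02 ± 0.45 without arrays 4 and 5; it passed without array 1 or 3 at 2 d or array 1 or 4 at 4 d (adjusted p 0.00906 to 0.05). Both Gpnmb and Lgals3 were above control at 4 d, by 2.71 ± 0.37 and 2.94 ± 0.49. Mmp12, macrophage elastase, read 10.03 and 8.65 on arrays 4 and 5 and 5.49 to 6.79 on the other arrays at 2 d, against 5.30 to 6.57 at 4 d, and its difference was -1.34 ± 0.41 with all arrays, -0.68 (adjusted p = 0.107) without array 4, -1.03 (adjusted p = 0.0656) without array 5 and -0.04 ± 0.24 without both.

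Markers of other immune cells and of vessels had small differences. The mean over the T and NK cell genes was 5.48 to 5.55 over the arrays at 2 d and 5.54 to 5.70 at 4 d, over the B cell genes 5.51 to 5.62 and 5.58 to 5.78, and over the neutrophil genes 5.90 to 6.30 and 6.01 to 6.21. Of 10 T and NK cell genes tested 3 rose, of 7 B cell genes 2 and of 11 neutrophil genes 2, with none lower. Without arrays 4 and 5 at 2 d 1, 1 and 2 rose. Of 17 T and NK cell genes on the array, 9 stayed below the overall median of 5.56 on every array at 2 d, and 9 at 4 d. Small differences so close to this median do not show that the cells were steady. Of 27 endothelial genes 5 rose and 1 fell (2 fell without array 1 or without array 3 at 2 d), with a median of 0.005. The shares were 18.5% and 3.7%, against 13.4% and 17.9% of all genes tested. The share of rises was thus near the background. Ehd3, which marks sinusoidal and glomerular endothelium, read 8.03, 8.00, 7.82, 7.66 and 7.67 at 2 d and 8.57, 8.45, 8.48, 8.33 and 8.34 at 4 d, a rise of 0.60 ± 0.08 (adjusted p = 9.01e-08), and Stab2, a sinusoidal scavenger receptor, rose by 0.34 ± 0.10. The member that fell was Plvap, a component of vessel diaphragms, at -0.52 ± 0.11, still 0.88 above control. Ccl2, the chemokine that recruits monocytes, read 6.20, 5.67, 5.84, 7.54 and 7.20 at 2 d and 5.19 to 5.51 at 4 d, in the control range of 5.10 to 5.54; its difference was -1.12 ± 0.20 with all arrays and -0.54 ± 0.14 (adjusted p = 0.00623) without arrays 4 and 5.

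Of 16 immediate early genes 8 fell (5 without array 4 at 2 d or array 3 at 4 d, and 2 without arrays 4 and 5 at 2 d). Fos, a subunit of the AP-1 factor, read 7.67, 7.34, 6.62, 9.31 and 9.34 at 2 d and 5.71, 5.80, 5.61, 7.14 and 5.97 at 4 d, and fell by 2.01 ± 0.38, or by 1.16 ± 0.36 (adjusted p = 0.0183) without arrays 4 and 5. Of 21 genes of mitogens and their receptors tested 4 fell, none rose and 17 did not pass, near the background share of falls. Without arrays 4 and 5 at 2 d 1 rose and 1 fell. Among the mitogens, Tgfa, an EGF receptor ligand made by hepatocytes, read 8.11, 7.67, 7.84, 7.82 and 7.64 at 2 d and 7.08, 7.09, 7.30, 6.97 and 7.0 at 4 d, a difference of -0.73 ± 0.14, or -0.23 with the mean of all probe sets. Hgf, the stellate cell mitogen for hepatocytes, differed by -0.36 ± 0.11 with all arrays but its call was lost without array 4 or array 5 at 2 d, and it was -0.20 ± 0.12 (adjusted p = 0.281) without both. Of 8 fetal liver and oncofetal genes tested 2 rose and 1 fell, and without arrays 4 and 5 at 2 d none rose and 1 fell. Afp, the fetal albumin-like protein, read 8.87, 7.90, 9.10, 6.09 and 6.74 at 2 d and 6.22, 7.17, 7.13, 6.61 and 5.97 at 4 d. Here arrays 4 and 5 at 2 d were low, and the difference was -1.12 ± 0.32 with all arrays and -2.0 ± 0.24 (adjusted p = 7.64e-08) without them. Of 17 circadian clock genes none was called by limma, with 3 at an unadjusted p under 0.05, 2 called lower in a fit of the 10 arrays alone and 1 lower without arrays 4 and 5 at 2 d.

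**Figure D5:**
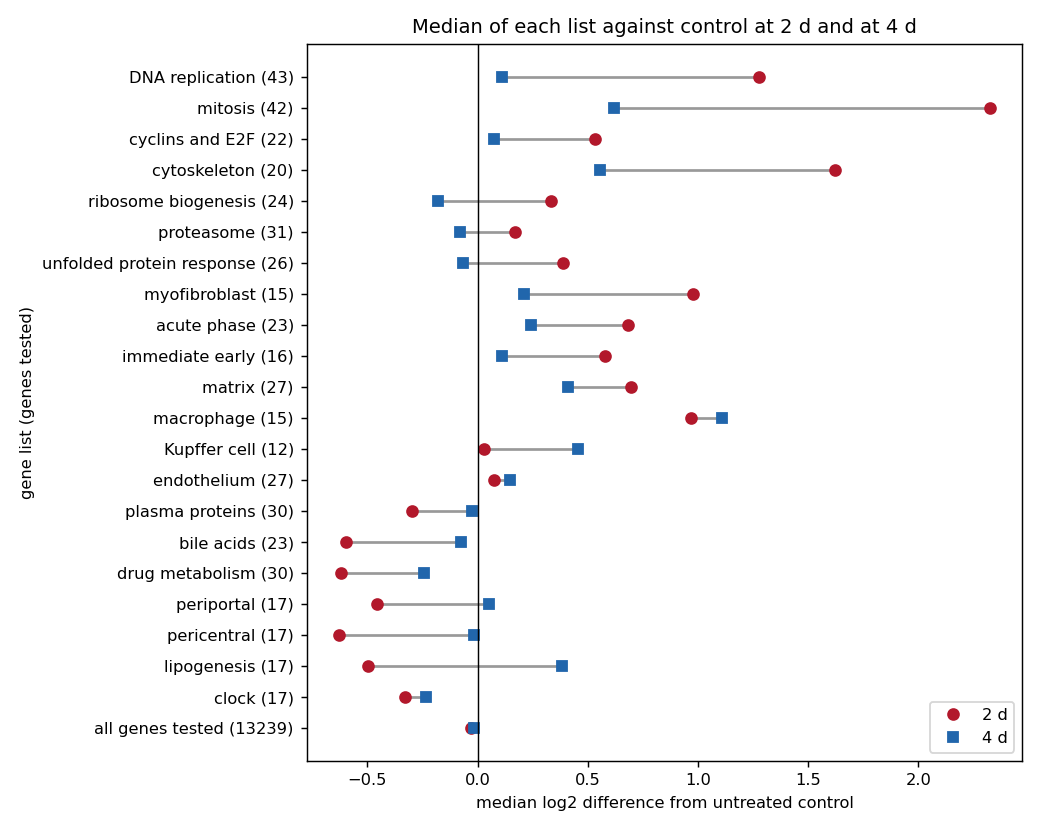
Points give the median log2 difference from untreated control over the tested genes of each list, at 2 d (red circles) and 4 d (blue squares); both share the control arrays. The replication list goes from 1.28 to 0.11 and the mitosis list from 2.32 to 0.62, while the macrophage list is at 0.97 and 1.11.

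At 4 d, 920 genes (6.95%) differed from control, 628 (4.74%) higher and 292 (2.21%) lower, with 121 (0.914%) at least 2-fold higher and 15 (0.113%) at least 2-fold lower; at 2 d the total was 5307 (40.1%). The groups with most members above control at 4 d were macrophage genes (13 of 15), mitosis genes (26 of 42), structural genes (11 of 20) and matrix genes (14 of 27). The groups with most members below it were male-biased genes (6 of 10) and drug metabolism genes (8 of 30). From 4 to 6 d 1431 genes (10.8%) passed, 465 (3.51%) higher and 966 (7.3%) lower. In a fit of the 10 arrays alone, which estimates the spread from these groups only, the calls of Ccnd1, Ccnb2, Bhmt, Car3, Col1a1, Timp1, Mmp12, Gpnmb and Afp did not pass (adjusted p 0.0595 to 0.204). With the mean of all probe sets of a gene, Mcm5, E2f8, Tubb6, Mme, Hamp2, Acss2, Acly, Col4a1, Csf1r, Gpnmb, Afp and Txnrd1 kept direction and call with differences of -1.59, -0.57, -1.0, 1.25, 1.02, 1.04, 0.58, -0.54, 0.52, 0.66, -0.74 and -0.31, each over 1.5 times smaller than with the single probe set.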

How the data were processed

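Liver RNA was copied from oligo-dT primers, labelled as biotin cRNA and hybridised to Affymetrix whole-genome mouse arrays, per the labels' protocols. The deposited values are log2 expression values which, per the submitters' processing notes, the authors made with RMA in the package oligo (version 1.52.0), and precision is limited by the number of arrays. Of 45101 probe sets 34945 named 1 gene, and for each of 18193 genes the brightest such probe set (by its mean across the 46 arrays) was kept. Testing took in the 13239 genes that exceeded 5.56, the overall median value, on 5 or more arrays. A gene could thus enter through the arrays of a single group in which it was high. One limma 3.58.1 fit (R 4.3.3) of the 9 group means over 46 arrays gave log2 differences, standard errors and Benjamini-Hochberg adjusted p-values, called under 0.05. On simulated data for 4 d against 2 d over 13239 genes, 84.4%, 95.7% and 100% of changes of 1.5-, 2- and 4-fold were recovered. The simulated arrays were independent, with each gene's spread taken over all 9 groups. They did not hold the split of the 2 d arrays, so these shares do not give the recovery in the real comparison. Array measures were compared by exact permutation. Promoter matches and figures used Python 3.11.15.

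The genes named are first the 15 largest rises and falls whose arrays did not overlap, with clone and predicted gene names left out. The others are up to 6 of the largest calls in each direction per list, all of short lists and a fixed panel. Exceptions are stated. The members and gene lists were chosen with earlier results of these data known. Alternatives were other normalizations, filters, fits, probe set rules, a replicate block and leaving out each array; leaving out arrays 4 and 5 at 2 d together was chosen after seeing the data.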

Additional observations from a re-analysis of the deposited data

Results flagged for a closer look

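In each group of 5 arrays the gap of the highest or lowest array to its nearest neighbour was compared with the whole range, a rule by which chance marks about 1 group in 20. Of 236 such groups examined 10 were marked, no more than chance gives. The rule finds a single array standing alone. It cannot mark 2 arrays that lie together, as arrays 4 and 5 at 2 d did for Gpnmb (8.61 and 8.54, others 5.70 to 5.89). The count therefore says nothing about the split of the 2 d arrays. At 2 d, array 5 was highest for Prim1 at 8.96 (others 8.01 to 8.25) and for Clec4f at 9.16 (others 8.40 to 8.59), and array 1 for Lgr5 at 6.30 (others 5.48 to 5.62). Array 2 at 2 d was lowest for Smc2 at 8.32 (others 8.98 to 9.22), Tubb6 at 8.62 (others 9.64 to 10.03), Hnf4a at 11.27 (others 11.45 to 11.50) and Txnrd1 at 8.96 (others 9.27 to 9.36). At 4 d, array 1 was highest for Fasn at 11.50 (others 10.38 to 10.40) and Ttr at 14.65 (others 14.53 to 14.54), and array 4 was highest for Fos at 7.14 (others 5.61 to 5.97).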

How the results depend on the processing

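Without arrays 4 and 5 at 2 d, an alternative chosen after the data were seen, 2639 genes passed in place of 4139, 958 of them higher; 219 passed with at least a 2-fold change in place of 335, 61 of them higher. Leaving out 1 array at a time gave 3391 to 4251 calls, 1378 to 1872 higher and 2013 to 2379 lower, and 264 to 382 calls of at least 2-fold, 77 to 135 higher and 187 to 247 lower; the lowest counts came without array 5 and the highest without array 2 at 2 d. Quantile normalization gave 2231 higher and 1810 lower calls. Nek2 changed direction with the mean of all probe sets of the gene, from 0.61 to -0.58 (adjusted p = 0.000838). Same-numbered arrays at 2 d and 4 d deviated together at r = 0.0603 to 0.192, all positive, and arrays with different numbers at -0.278 to 0.245. These values do not settle whether the numbers pair the arrays, and the main fit did not take them to do so. A fit with the replicate block gave 1752 higher and 2351 lower calls. The causes of these shifts were not tested.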
